A study of Rattus norvegicus with 16 samples.

Results

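The endothelial and angiogenesis genes described here are Sox18, Sox17, Kdr, Flt1, Tek, Tie1, Pecam1, Esm1, Eng and Vegfa, 10 genes of 14217 measured in denervated rat skin. They were taken by name, with earlier results of these data known, and 16 of the 20826 probesets that carry a single gene are annotated to them. Their expression was compared in hairy skin of adult female Sprague-Dawley rats 7 days after denervation (5 samples), 14 days after denervation (5 samples) and without any surgery (naïve, 6 samples), with 1 Affymetrix rat genome array for each sample. In the denervated rats, cutaneous nerves of the left side were tied off and cut, so that a strip of skin lost its sensory and autonomic axons, and the rostral denervated strip was sampled. The naïve animals had no incision, so that the operation and the loss of nerves cannot be told apart. Every sample also holds the thin cutaneous muscle below the skin, whose own nerve supply was left intact. Values are log2 expression from robust multi-array averaging (RMA), in which a difference of 1 is a doubling, and each gene is the median of its probesets.

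Endothelial cells line blood and lymph vessels, and much of their growth is set by secreted VEGF acting on tyrosine kinase receptors and by angiopoietins acting on the Tie receptors. The transcription factors SOX17 and SOX18 act in endothelial identity and vessel formation, and endoglin serves as a co-receptor for BMP ligands on the same cells. Skin holds a dense capillary bed in the dermis, around hair follicles and in the muscle below. In whole skin, more cells of a type and more RNA per cell cannot be told apart.

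At 7 days, 6 of the 10 genes were higher than in naïve skin (7.85% of all genes were) and none was lower (2.66% of all genes were), with Sox18, Tie1, Eng, Pecam1, Tek and Kdr raised between 1.25-fold and 2.14-fold. At 14 days, none of the 10 passed the test against naïve skin in either direction, where 8.95% of all genes were higher and 14.6% lower. Sox18, Tek, Tie1 and Pecam1 were also lower at 14 days than at 7 days, as were 10.1% of all genes, so that their rise was no longer detected at 14 days, whereas Eng and Kdr lay between the other groups and did not pass the test against either one at 14 days. Vegfa, Flt1, Sox17 and Esm1 passed in none of the 3 comparisons. A difference passed where the p-value of limma's moderated test, adjusted by the Benjamini-Hochberg method over all 14217 genes, was under 0.05.

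The naïve arrays were less alike than the others. Their pairwise correlations over all probesets other than controls went down to 0.931, while the lowest was 0.977 at 7 days and 0.993 at 14 days. Naïve replicates 1 and 2 had hair follicle marker scores of 1.76 and 2.08 (the mean over a marker list of each gene's log2 value minus its mean over the 16 arrays), close to the 14 day arrays at 1.87 to 1.98, whereas naïve replicates 3 to 6 lay between -3.95 and -3.66. Naïve replicates 4 and 5 were lowest in macrophage and fibroblast markers, with macrophage scores of -1.57 and -1.98. Counts that rest on the naïve arrays are therefore also given without these arrays. Nothing in the labels says which samples share a cage, surgery day or array run. The p-values use the spread between samples within groups, pooled over all groups, so that the 14 day arrays also enter the 7 day test.

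**Figure D1:**
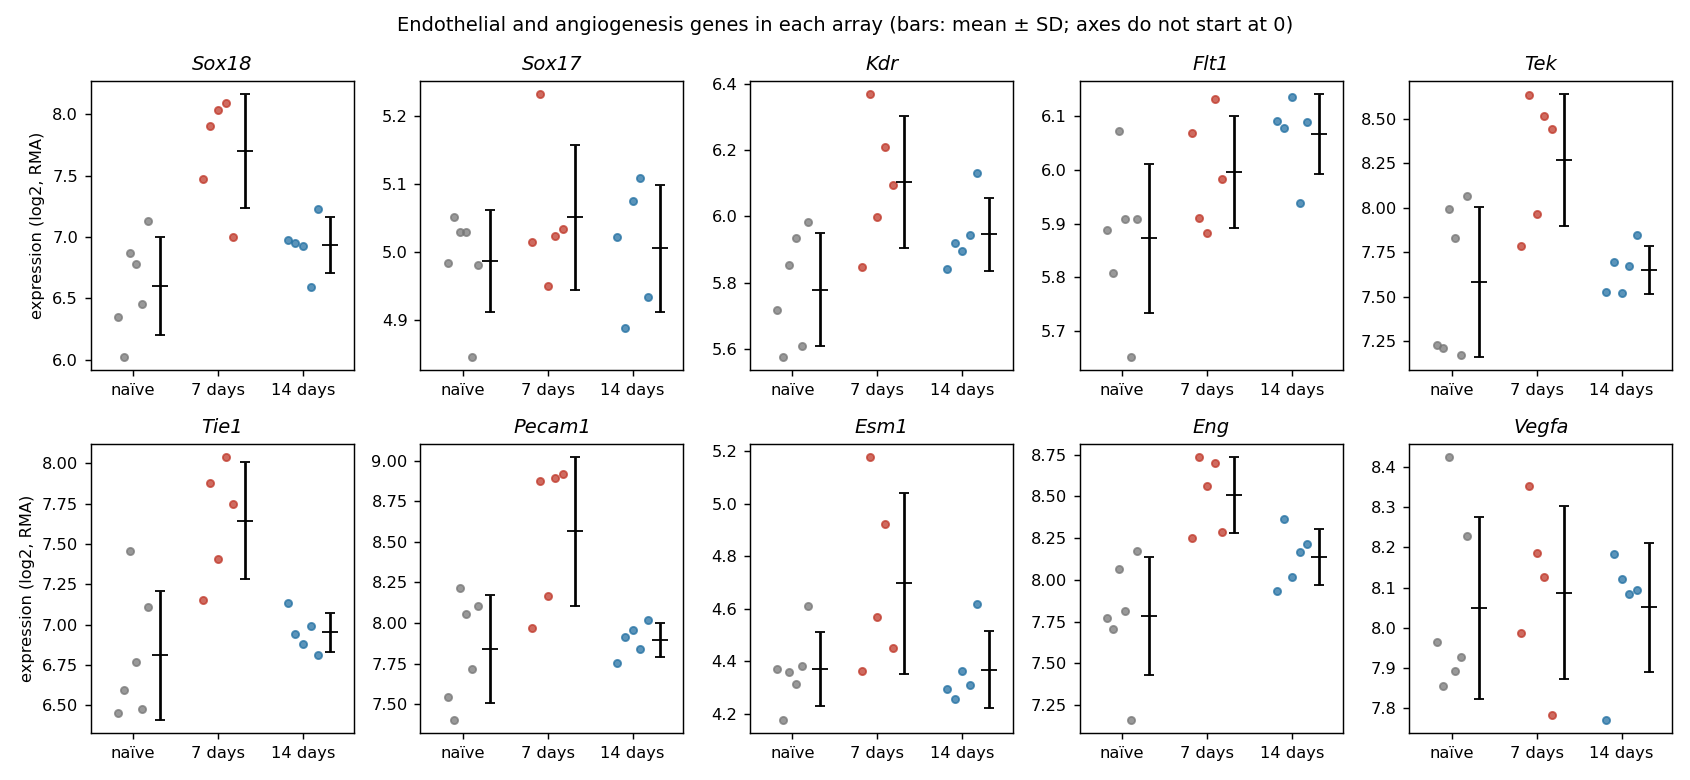
Log2 expression (RMA) of the 10 genes in each array, for 6 naïve arrays and for the 5 arrays of each time after denervation. Dots are arrays and bars are the mean ± SD, and the axes do not start at 0. The 7 day arrays of Eng all lie above the naïve arrays, and the 14 day arrays of Tie1 all lie below the 7 day arrays.

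Upstream sequence from RefSeq on the GRCr8 assembly was matched for 6 of the 10 genes. The 250 bases before the start site are shown for Tie1, Eng and Kdr, which were all higher at 7 days, and for Flt1, a VEGF receptor that did not pass, so that the promoters of both kinds can be read side by side. Capitals mark GGAAG on either strand (CTTCC where it lies on the other strand), letters that hold the core bound by ETS transcription factors, a family that is active in endothelial cells.
Tie1 (chr5:137304982-137305231, minus strand): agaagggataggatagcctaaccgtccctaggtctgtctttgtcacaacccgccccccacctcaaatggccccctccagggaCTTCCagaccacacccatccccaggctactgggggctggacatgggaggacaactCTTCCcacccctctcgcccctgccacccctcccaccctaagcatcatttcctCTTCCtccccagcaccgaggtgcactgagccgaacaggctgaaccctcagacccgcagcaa
Eng (chr3:36332029-36332278, plus strand): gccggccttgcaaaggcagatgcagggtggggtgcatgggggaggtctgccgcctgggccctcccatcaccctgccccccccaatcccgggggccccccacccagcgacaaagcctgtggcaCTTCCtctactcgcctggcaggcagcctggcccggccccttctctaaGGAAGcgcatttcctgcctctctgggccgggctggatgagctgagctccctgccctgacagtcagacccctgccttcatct
Kdr (chr14:32571813-32572062, plus strand): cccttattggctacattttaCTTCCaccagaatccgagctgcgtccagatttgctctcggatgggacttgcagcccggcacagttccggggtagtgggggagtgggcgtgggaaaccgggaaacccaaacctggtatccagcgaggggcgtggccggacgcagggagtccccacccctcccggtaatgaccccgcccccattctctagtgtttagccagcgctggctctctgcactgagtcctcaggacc
Flt1 (chr12:12333180-12333429, plus strand): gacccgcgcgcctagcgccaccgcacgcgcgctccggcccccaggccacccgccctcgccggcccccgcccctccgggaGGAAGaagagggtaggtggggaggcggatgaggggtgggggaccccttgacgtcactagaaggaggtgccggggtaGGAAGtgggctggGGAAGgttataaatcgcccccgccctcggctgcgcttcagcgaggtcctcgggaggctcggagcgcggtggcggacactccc
The motif occurred 3 times before Tie1, 2 times before Eng, 1 time before Kdr and 3 times before Flt1. Of 33469 rat promoters of the same length, 63.3% held it. The letters ACAAT, as bound by SOX factors, were in none of these windows on either strand and in 30% of all promoters. The box GGGCGG of SP and KLF factors was present before Tie1, Kdr and Flt1 but not in the window of Eng, and 30.5% of all promoters held it.

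Vegfa encodes the ligand VEGF-A, the main growth signal for endothelial cells. Its expression ran from 7.85 to 8.43 with a median of 7.95 in naïve skin, it was 7.99, 8.35, 8.19, 8.13 and 7.78 in the 7 day replicates 1 to 5, and it was 7.77, 8.18, 8.12, 8.08 and 8.09 at 14 days. The 3 groups overlapped over nearly all of their range. The difference from naïve skin was 0.038 at 7 days (95% interval -0.22 to 0.29, limma adjusted p = 0.847) and 0.0014 at 14 days (-0.25 to 0.26, adjusted p = 0.995). These intervals take in small changes in either direction. Its 2 probesets moved apart at 14 days, by 0.22 for 1370081_a_at and by -0.22 for 1373807_at, neither of which passed the test.

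Kdr encodes VEGF receptor 2, which carries most of the growth signal of VEGF-A in endothelial cells. In naïve skin its lowest, median and highest values were 5.58, 5.79 and 5.98. The 7 day arrays gave 5.85, 6.37, 6.00, 6.21 and 6.09, and the 14 day arrays gave 5.84, 5.92, 5.90, 5.94 and 6.13. All 7 day arrays but replicate 1 lay above the highest naïve array, while at 14 days only replicate 5 did. Kdr was 0.32 higher at 7 days than in naïve skin (SE 0.0976, adjusted p = 0.0461). At 14 days it was 0.17 above naïve skin (95% interval -0.041 to 0.37, adjusted p = 0.213) and 0.16 below the 7 day level (adjusted p = 0.27), and neither difference passed.

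The value of Kdr is the mean of 2 probesets that did not move alike. Probeset 1367948_a_at averaged 7.80 ± 0.407 at 7 days and 7.07 ± 0.386 in naïve skin (SD), a difference of 0.73 (adjusted p = 0.0276 over all probesets), and it was 0.58 lower at 14 days than at 7 days by an adjusted p of 0.0525. Probeset 1397868_at averaged 4.41 at 7 days and 4.49 in naïve skin, both below 4.57, under which the lowest 10% of all gene values lie. It was 0.26 higher at 14 days than at 7 days (adjusted p = 0.0358). The 7 day difference of Kdr therefore depends on which probeset is read. It was 0.73 for 1367948_a_at, -0.086 for the dim 1397868_at (adjusted p = 0.484) and 0.32 for the gene value.

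Flt1 encodes VEGF receptor 1, which also binds VEGF-A and, as a soluble form, holds it back. Its values ran from 5.65 to 6.07 with a median of 5.90 in naïve skin. They were 6.07, 5.91, 5.88, 6.13 and 5.98 at 7 days and 6.09, 6.08, 6.14, 5.94 and 6.09 at 14 days. All 5 arrays of 7 days and all 5 of 14 days were above the naïve mean, but the groups overlapped. The difference was 0.12 at 7 days (95% interval -0.027 to 0.27, adjusted p = 0.253) and 0.19 at 14 days (0.045 to 0.34, adjusted p = 0.0562), so that Flt1 alone among the 10 genes had a larger difference from naïve skin at 14 days than at 7 days by value. The change between the times, 0.071 (-0.085 to 0.23), did not pass. Of its 3 probesets, 1369087_at passed at 14 days, at 6.12 ± 0.127 against 5.88 ± 0.139 in naïve skin (SD, adjusted p = 0.0387). The others had the larger difference from naïve skin at 7 days, and neither passed. Probeset 1370492_a_at was 0.27 above naïve skin at 7 days (adjusted p = 0.0896) and 0.15 at 14 days. For 1377113_at the differences were 0.12 and 0.054, so that the order of the times depends on the probeset.

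**Figure D2:**
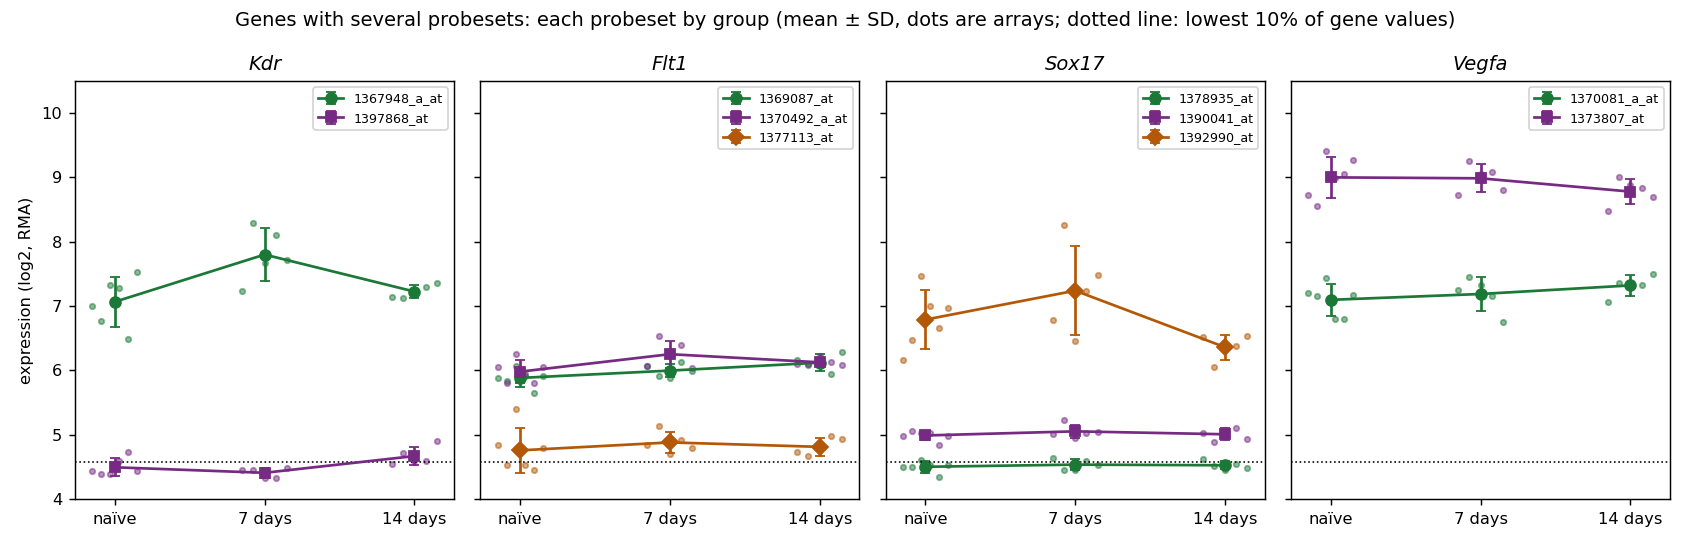
Log2 expression (RMA) of each probeset of Kdr, Flt1, Sox17 and Vegfa by group, as mean ± SD with dots for arrays, and a dotted line at 4.57, under which the lowest 10% of gene values lie. Kdr 1367948_a_at peaks at 7 days while Kdr 1397868_at stays near the dotted line, and Sox17 1392990_at differs from the other Sox17 probesets.

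Tek encodes TIE2, the receptor of the angiopoietins, and Tie1 encodes its partner receptor, which binds no angiopoietin tightly by itself. Tek had a lowest, median and highest value of 7.18, 7.53 and 8.07 in naïve skin, gave 7.79, 8.64, 7.97, 8.51 and 8.44 at 7 days and gave 7.53, 7.69, 7.52, 7.67 and 7.85 at 14 days. At 7 days, replicates 2, 4 and 5 exceeded the highest naïve array, and replicates 1 and 3 fell inside the naïve range. Tek was 0.69 higher at 7 days than in naïve skin (SE 0.194, adjusted p = 0.0357) and 0.62 lower at 14 days than at 7 days (SE 0.202, adjusted p = 0.0453). Against naïve skin the 14 day difference was 0.068, with a 95% interval of -0.34 to 0.48 (adjusted p = 0.819).

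Tie1 ran from 6.45 to 7.46 with a median of 6.68 in naïve skin. It was 7.15, 7.88, 7.41, 8.04 and 7.75 at 7 days and 7.13, 6.94, 6.88, 6.99 and 6.81 at 14 days. Every 14 day array was below every 7 day array, a separation that Tie1 alone of the 10 genes showed and that 11.6% of all genes showed. The 7 day difference from naïve skin was 0.83 (SE 0.185, adjusted p = 0.0124), and 14 days was 0.69 below 7 days (SE 0.193, adjusted p = 0.0255). At 14 days Tie1 was 0.14 above naïve skin (-0.25 to 0.54, adjusted p = 0.594).

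Sox18 encodes a transcription factor of developing and growing vessels and showed the largest 7 day difference of the 10 genes. Its values were 6.02 to 7.13 with a median of 6.62 in naïve skin, 7.48, 7.91, 8.04, 8.10 and 7.00 at 7 days, and 6.98, 6.95, 6.93, 6.59 and 7.23 at 14 days. Replicate 5 was the one 7 day array inside the naïve range. Sox18 was 1.10 higher at 7 days than in naïve skin (SE 0.214, 95% interval 0.64 to 1.56, adjusted p = 0.00689), which is 2.14-fold. It was 0.77 lower at 14 days than at 7 days (SE 0.224, adjusted p = 0.0299). The 14 day difference from naïve skin was 0.33 (-0.12 to 0.79, adjusted p = 0.256), an interval that takes in both no difference and a smaller remaining rise.

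Sox17 encodes a related factor that is prominent in arteries. It ran from 4.85 to 5.05 with a median of 5.01 in naïve skin, gave 5.02, 5.23, 4.95, 5.02 and 5.03 at 7 days and gave 5.02, 4.89, 5.07, 5.11 and 4.93 at 14 days. The groups overlapped throughout, and the difference was 0.064 at 7 days (-0.064 to 0.19, adjusted p = 0.491) and 0.019 at 14 days (-0.11 to 0.15, adjusted p = 0.841). Its median probeset hides a spread among 3 probesets, of which 1392990_at averaged 6.36 ± 0.192 at 14 days and 7.24 ± 0.694 at 7 days (SD), a difference of -0.88 (adjusted p = 0.0444). That probeset was 0.45 above naïve skin at 7 days (adjusted p = 0.298), with a 7 day range of 6.45 to 8.26, so that no rise was called from which it could return.

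Pecam1 encodes the junction protein CD31, which is carried by endothelial cells and also by platelets and many leukocytes. Its naïve values were 7.40 to 8.21 with a median of 7.89, its 7 day values were 7.97, 8.88, 8.17, 8.89 and 8.92, and its 14 day values were 7.75, 7.91, 7.96, 7.84 and 8.02. The 7 day arrays split, with replicates 2, 4 and 5 above all naïve arrays and replicates 1 and 3 inside the naïve range. Pecam1 was 0.72 higher at 7 days than in naïve skin (SE 0.189, adjusted p = 0.0254) and 0.67 lower at 14 days than at 7 days (SE 0.197, adjusted p = 0.031). It was 0.056 above naïve skin at 14 days (-0.35 to 0.46, adjusted p = 0.847).

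Eng encodes endoglin, which is raised on proliferating endothelial cells and is also present on macrophages. It ran from 7.16 to 8.18 with a median of 7.79 in naïve skin, and it was 8.25, 8.74, 8.56, 8.70 and 8.29 at 7 days and 7.93, 8.36, 8.02, 8.17 and 8.21 at 14 days. All 7 day arrays lay above all naïve arrays, which held for Eng alone of the 10 genes and for 3.31% of all genes. The 7 day rise was 0.73 (SE 0.154, adjusted p = 0.0103). At 14 days Eng was 0.36 above naïve skin (0.028 to 0.69, adjusted p = 0.101) and 0.37 below the 7 day level (-0.71 to -0.025, adjusted p = 0.113), so that its rise was neither shown to last nor shown to be gone.

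Esm1 encodes endocan, a proteoglycan secreted by endothelial cells at the growing tip of sprouts. Its naïve values were 4.18 to 4.61 with a median of 4.36, and the arrays gave 4.36, 5.18, 4.57, 4.92 and 4.45 at 7 days and 4.30, 4.26, 4.36, 4.31 and 4.62 at 14 days. Replicates 2 and 4 of 7 days stood above all naïve and 14 day arrays, and the naïve and 14 day means lay below 4.57, under which the lowest 10% of gene values lie. Esm1 was 0.33 higher at 7 days (0.051 to 0.60, adjusted p = 0.112) and 0.33 lower at 14 days than at 7 days (adjusted p = 0.096), and neither passed.

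For the 10 genes as a group, the comparison of 7 day skin with naïve skin asked which of them differ after denervation surgery, and the comparisons with 14 day skin asked whether such a difference lasts. At 7 days 6 of 10 genes were higher, against 7.85% of all genes, and 0 were lower, against 2.66% of all genes. At 14 days 0 of 10 were higher and 0 lower than in naïve skin by limma's test, against 8.95% and 14.6% of all genes. At an unadjusted limma p under 0.05 the counts were 2 higher, Flt1 and Eng, and 0 lower. The share of all genes at that looser threshold was not counted, so that these 2 cannot be set against it. Between the times 4 of 10 were lower at 14 days than at 7 days (10.1% of all genes) and 0 were higher (8.86%). A rise gone at 14 days, defined as higher at 7 days, lower at 14 days than at 7 days and not past the threshold against naïve skin at 14 days, was found for 4 of 10 genes and for 2.72% of all genes. The median difference of the 10 genes was 0.51 at 7 days and 0.11 at 14 days against naïve skin, while the medians over all genes were -0.022 and 0.023. All 10 differences were above 0 at 7 days (45.4% of all genes) and 9 at 14 days (54.2%), and 9 were below 0 between the times (50.8%). No gene of the 10 had every 14 day array above every naïve array, which 3.69% of all genes had. Among the 16 probesets, 6 were higher at 7 days (6.66% of all probesets), 1 was higher at 14 days (9.11%), and between the times 5 were lower (10.6%) and 1 was higher (8.91%).

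**Figure D3:**
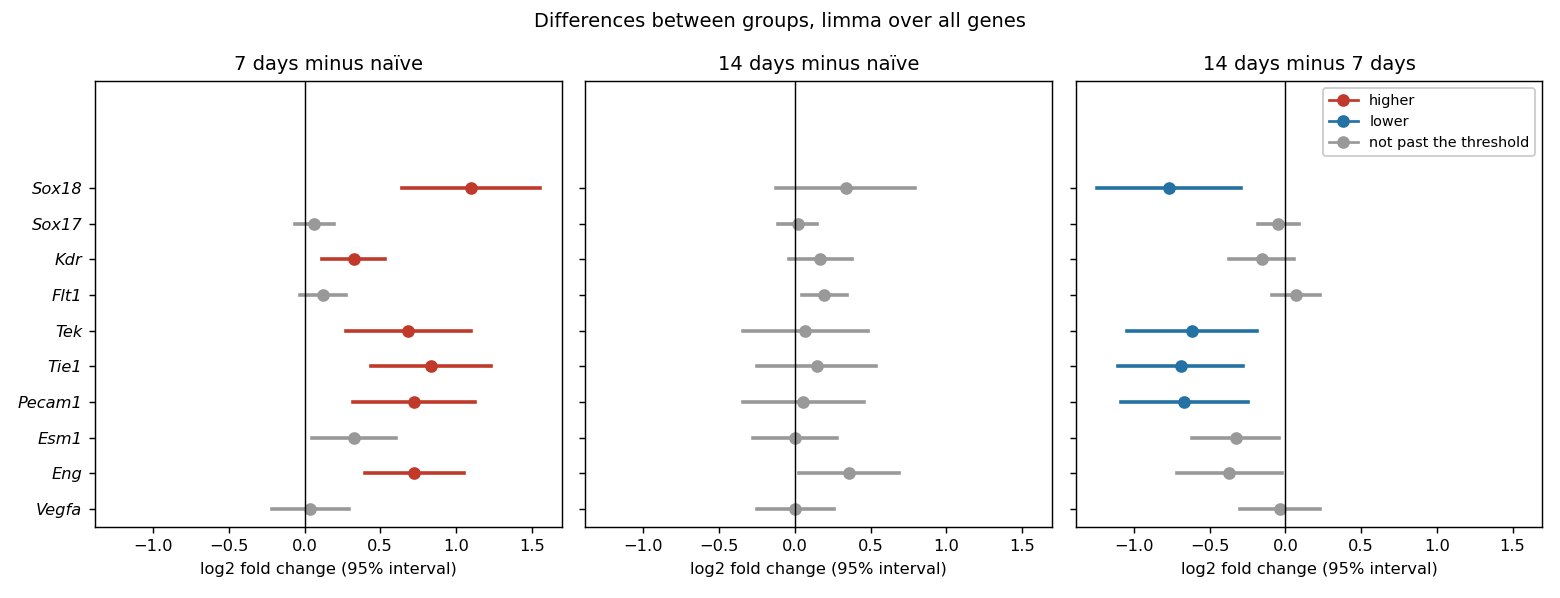
Log2 fold change of each of the 10 genes with its 95% interval, for 7 days minus naïve, 14 days minus naïve and 14 days minus 7 days. Colour marks differences past the limma threshold. All 10 points lie above 0 at 7 days, with 6 past the threshold, and 4 pass below 0 between the times.

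The 95% intervals in the plot of differences are not adjusted for the number of genes. Esm1 at 7 days and Eng and Flt1 at 14 days have intervals that lie above 0, and none of them passed after adjustment over all genes. For Sox17 the 7 day interval ends at 0.19 and for Flt1 at 0.27, and a p above the threshold does not show that these genes stayed level.

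The 7 day counts depended on which arrays were read. Sox18, Tie1 and Eng alone passed when naïve replicate 5 was left out, and likewise when the 7 day replicate 2, 4 or 5 was left out, so that 3 of 10 genes were then higher. The share of all genes called higher was 5.00% without naïve replicate 5, and 7.05%, 3.72% and 8.06% without the 7 day replicates 2, 4 and 5. Without naïve replicates 1 and 2, which stood apart in hair follicle genes, Sox18, Tie1, Pecam1 and Eng passed, while the share of all genes went up to 19%. Without naïve replicates 4 and 5 only Sox18 and Eng passed, with a share of 2.43% of all genes. In a fit of 7 day and naïve arrays alone Sox18 was the one gene of the 10 that passed, where 1.86% of all genes did. Sox18 passed in 30 of 30 alternatives, with differences of 0.88 to 1.39, Eng in 28, Tie1 in 27, Pecam1 in 22, Tek in 20 and Kdr in 10.

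The fall between the times also depended on single arrays. It was negative in 30 of 30 alternatives for each of Sox18, Tek, Tie1 and Pecam1, but the count past the threshold was 0 without the 7 day replicate 2, without the 7 day replicate 4 and without the 14 day replicate 3. In these 3 fits 6.53%, 5.98% and 6.04% of all genes were lower at 14 days than at 7 days. The count was 1 without the 14 day replicate 2, 4 or 5, against 6.73%, 7.21% and 5.21% of all genes in these fits. It was 2 without the 7 day replicate 3 or 5 or the 14 day replicate 1, against 5.69%, 11.1% and 7.91%. With a sarcomere marker score as a covariate none of the 10 passed as lower at 14 days than at 7 days, although 10.0% of all genes did. The differences were then -0.60 for Sox18, -0.53 for Tie1, -0.38 for Tek and -0.39 for Pecam1 on the log2 scale, with limma adjusted p between 0.0512 and 0.120. In that fit 7 genes, Esm1 among them, were higher at 7 days than in naïve skin, against 7.46% of all genes.

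Within the groups the 6 genes that were higher at 7 days varied together. After the group means were taken away, the correlation over 16 arrays had a median of 0.63 over their 15 pairs, from 0.38 to 0.92, where all 45 pairs of the 10 genes had a median of 0.50 and a lowest value of -0.11. These are descriptions over arrays that share RNA quality, scaling and tissue makeup. The highest was between Tek and Pecam1. In each of the 6 genes the 3 lowest naïve arrays were replicates 1, 2 and 5, which held for 1 of the other 4 genes. Neither this order nor the correlations were set against all genes, so that they cannot be called particular to the 6 genes.

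Among the 7 day arrays, replicate 1 was the lowest in 6 of the 10 genes and replicate 2 the highest in 6. These counts were not set against all genes. The mean of the 6 genes, each centred on its mean over all arrays, was 0.060 in the 7 day replicate 1 and 0.34 to 0.72 in the other 4, while it lay between -0.16 and 0.022 at 14 days and between -0.60 and 0.074 in naïve skin. The 14 day arrays were close to each other, with a median SD of 0.129 over the 6 genes, against 0.366 at 7 days and 0.377 in naïve skin. Over all genes the median SD was 0.0981 at 14 days, 0.148 at 7 days and 0.176 in naïve skin. The median SD at 7 days was 2.84 times that at 14 days for the 6 genes and 1.51 times over all genes, and in naïve skin it was 2.92 times and 1.79 times that at 14 days. The difference in narrowing between the 6 genes and all genes was not tested.

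**Figure D4:**
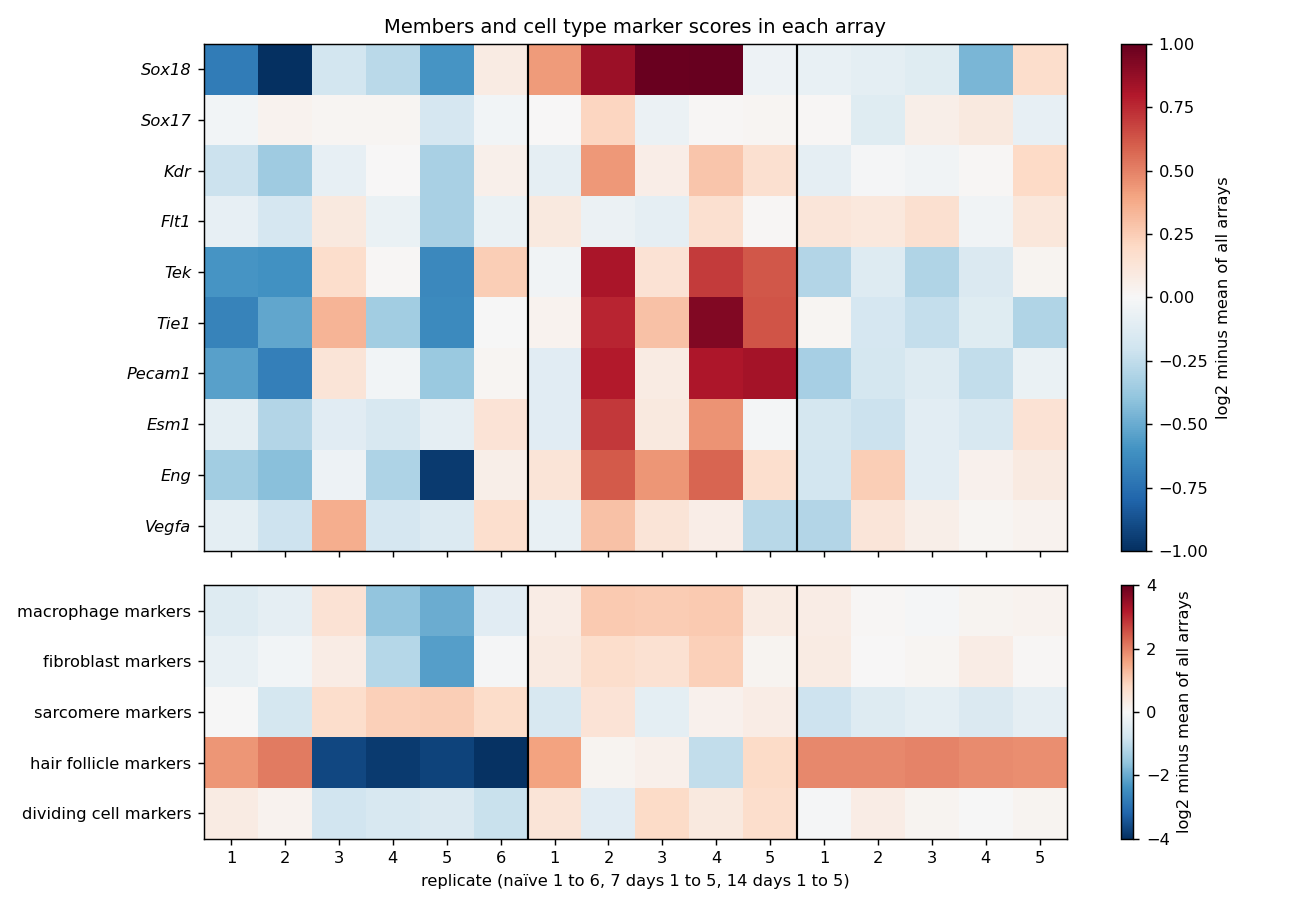
Log2 expression of the 10 genes (upper panel) and scores of marker lists (lower panel) in each of the 16 arrays, relative to the mean of all arrays, with naïve replicates 1 to 6, 7 day replicates 1 to 5 and 14 day replicates 1 to 5 from left to right. The 7 day replicates 2 and 4 are highest in most rows of the upper panel. Macrophage scores in the 7 day replicates 1 to 5 are 0.29, 1.06, 1.00, 1.04 and 0.34. The mean of the 10 genes on the same scale is 0.028, 0.54, 0.21, 0.50 and 0.21. Hair follicle markers divide the naïve arrays into replicates 1 and 2 and replicates 3 to 6.

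Markers of other cells moved with these groups. Of 13 macrophage and myeloid markers, 10 rose at 7 days (7.85% of all genes did), among them Cd68 at 1.49 above naïve skin. The list score was 0.29 to 1.06 at 7 days and -1.98 to 0.57 in naïve skin. At 14 days 2 of 13 rose, where 8.95% of all genes did, and the score was -0.033 to 0.31. None of the 13 was in the lowest 10% of gene values in every group. Of 8 fibroblast markers 3 rose at 7 days (7.85% of all genes did), with scores of 0.12 to 0.96 at 7 days and -2.21 to 0.30 in naïve skin. The part of macrophages and fibroblasts in the differences of Pecam1, Eng and the other genes was not tested.

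Muscle and hair markers passed the test at 14 days and not at 7 days, and none of either list passed between the times. Of 12 sarcomere markers none passed at 7 days, where 7.85% of all genes rose and 2.66% fell, and 8 fell at 14 days (14.6% of all genes did). Their scores were -0.82 to -0.36 at 14 days, -0.63 to 0.54 at 7 days and -0.71 to 0.99 in naïve skin. Of 9 hair follicle markers none passed at 7 days and 8 rose at 14 days (8.95% of all genes did). With a covariate for hair follicle markers, 6 of the 10 genes were higher at 7 days, against 8.67% of all genes in that fit. In the same fit 3, all but Tek, were lower at 14 days than at 7 days, against 10.8% of all genes. Of 9 defining markers of endothelial cells 8 were measured, several of them among the 10 genes, and none was in the lowest 10% of gene values in every group.

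The wider vessel gene lists hold 108 other genes of the same pathways, of which 98 were measured. These lists were chosen with earlier results of these data known, so that their counts are descriptions and not a test. At 7 days 24 of them were higher and 1 was lower than in naïve skin, with a median difference of 0.28, against 7.85% and 2.66% of all genes. Higher genes were thus 24.5% of the 98. At 14 days 5 (5.10%) were higher and 10 (10.2%) lower than in naïve skin, against 8.95% and 14.6% of all genes. Between the times 4 (4.08%) were higher and 16 (16.3%) lower at 14 days than at 7 days, against 8.86% and 10.1% of all genes. The pattern of a rise gone at 14 days was found for 10 of the 98 (2.72% of all genes), namely Nrp1, Ets1, Lyl1, Emcn, Ecscr, Aplnr, Calcrl, Hey2, Ephb4 and Vhl. The shares of all genes given here also apply to the counts of each single list below.

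**Figure D5:**
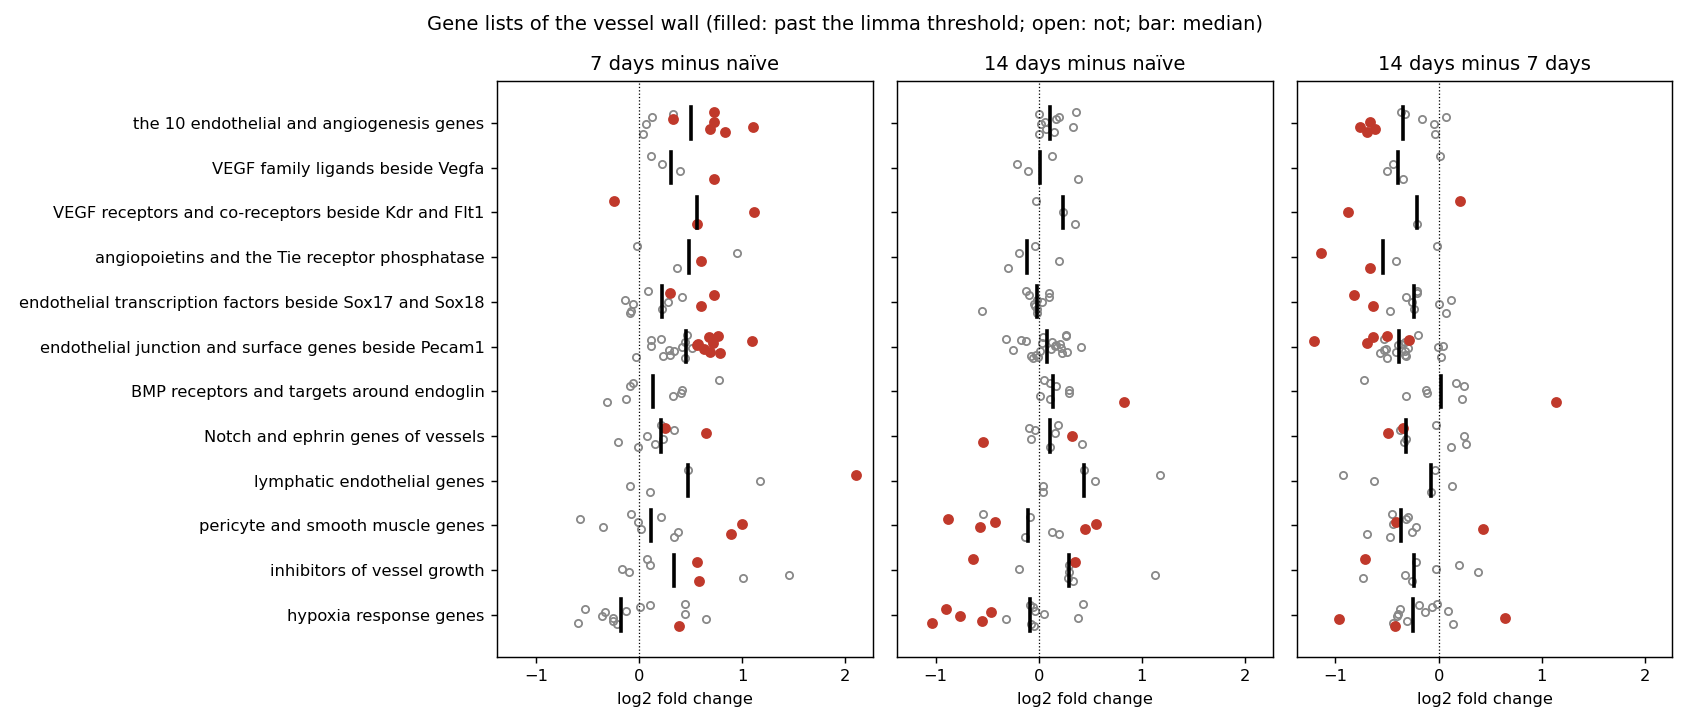
Log2 fold change of every measured gene in the 10 endothelial and angiogenesis genes and in 11 other vessel gene lists, for 7 days minus naïve, 14 days minus naïve and 14 days minus 7 days. Filled dots passed the limma threshold, open dots did not, and bars are list medians. Junction and surface genes have 9 filled dots at 7 days and none at 14 days against naïve skin.

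Among other VEGF ligands, Vegfd, which acts on VEGF receptors 2 and 3, was 0.72 higher at 7 days than in naïve skin (SE 0.168, adjusted p = 0.0153), and the other 3 ligands did not pass. All 3 further receptors passed at 7 days. The co-receptors Nrp1 and Nrp2, which bind VEGF and semaphorins, were higher by 1.11 (adjusted p = 0.00567) and 0.56 (adjusted p = 0.04), and Nrp1 was then 0.88 lower at 14 days than at 7 days (adjusted p = 0.0152). Flt4, the receptor of VEGF-C and VEGF-D on lymphatic vessels, was 0.24 lower at 7 days than in naïve skin (adjusted p = 0.0257).

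Among angiopoietins and the Tie receptor phosphatase, Angpt4, a ligand of TIE2, was 0.60 higher at 7 days (adjusted p = 0.0251). Between the times, 2 genes of this list passed and are named after their values were seen. Angpt2, the ligand that is released by activated endothelium and often opposes TIE2 signalling, was 1.14 lower at 14 days than at 7 days (SE 0.327, adjusted p = 0.0278), and Ptprb, the phosphatase that acts on TIE2, was 0.66 lower (adjusted p = 0.0397).

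Of 11 other endothelial transcription factors, 3 were higher at 7 days and none passed at 14 days against naïve skin. These were the ETS factors Ets1, by 0.73 (adjusted p = 0.0245), and Erg, by 0.30 (adjusted p = 0.0312), and Lyl1, by 0.60 (adjusted p = 0.0494). Ets1 was 0.82 and Lyl1 0.63 lower at 14 days than at 7 days (adjusted p = 0.0138 and 0.0347). Lyl1 and Ets1 are expressed in blood cells as well.

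Of 22 measured junction and surface genes, 9 were higher at 7 days, none was lower, and none passed in either direction at 14 days against naïve skin. The leading ones were Aplnr, the apelin receptor, at 0.76 (adjusted p = 0.00509), Ecscr, an endothelial surface protein of cell migration, at 1.09 (adjusted p = 0.00924), Plvap, which forms the diaphragms of fenestrated capillaries, at 0.69 (adjusted p = 0.00952), and Calcrl, the receptor of adrenomedullin and of the sensory neuropeptide CGRP, at 0.68 (adjusted p = 0.0194). Ecscr fell by 1.21 between 7 and 14 days (adjusted p = 0.00559), and Aplnr and Calcrl were also lower at 14 days than at 7 days. For Plvap no fall between the times was called.

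Around endoglin, none of 8 measured BMP receptors and targets passed at 7 days. The receptor Acvrl1, which signals with endoglin, was 0.77 above naïve skin with an adjusted p of 0.0581, and the signal carrier Smad5 was 0.33 above it with the same adjusted p. At 14 days the inhibitory factor Smad7 was 0.82 higher than in naïve skin (adjusted p = 0.019) and 1.14 higher than at 7 days (adjusted p = 0.00642).

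Of 9 Notch and ephrin genes, Hey2, a Notch target of arteries, was 0.65 higher at 7 days (adjusted p = 0.0093), and Ephb4, a receptor that marks veins, was 0.25 higher (adjusted p = 0.0253). Both were lower at 14 days than at 7 days. At 14 days the ligand Jag2 was 0.54 lower and the Notch target Heyl 0.33 higher than in naïve skin (adjusted p = 0.0193 and 0.0414). Of 5 lymphatic genes, only Lyve1, a hyaluronan receptor of lymphatic endothelium and of some macrophages, passed at 7 days, at 2.10 above naïve skin (SE 0.531, adjusted p = 0.0224). By value 4 of the 5 were above naïve skin at 7 days, with Pdpn at 1.17 (adjusted p = 0.0691), Ccl21 at 0.47 and Reln at 0.11. Prox1, the factor that specifies lymphatic cells, averaged 5.11 at 7 days and 5.20 in naïve skin.

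Of 10 measured pericyte and smooth muscle genes, Kcnj8, a potassium channel of pericytes, was 1.00 higher at 7 days (adjusted p = 0.00515), and Rgs5, a regulator of G protein signalling in pericytes, was 0.89 higher (adjusted p = 0.0317). At 14 days 2 rose and 3 fell against naïve skin, led by the receptor Notch3 at 0.45 (adjusted p = 0.00152) and the contractile gene Cnn1 at -0.89 (adjusted p = 0.00997). Of 8 inhibitors of vessel growth, Col18a1, the source of endostatin, and Vash1, which encodes vasohibin, were 0.57 and 0.58 higher at 7 days (adjusted p = 0.00827 and 0.0118). At 14 days the inhibitor Adamts1 was 0.64 lower than in naïve skin (adjusted p = 0.0257), and Col18a1 was 0.35 higher (adjusted p = 0.0387).

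Of 14 hypoxia response genes, only Vhl, which targets HIF proteins for breakdown, passed at 7 days, at 0.38 above naïve skin (adjusted p = 0.0161). At 14 days 5 were lower and none was higher than in naïve skin, led by the kinase gene Pdk1 at -0.55 (adjusted p = 0.00952) and by Bnip3 at -0.90 (adjusted p = 0.0196). The others were Pgk1, Ldha and Egln3, named after their values were seen. Several of these genes, such as those of glycolysis, are abundant in muscle, whose markers were lower at the same time, and the part of muscle in their fall was not tested.

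The genes whose profile was most like the mean of the 10 genes over the 16 arrays were Npr1, with a correlation of 0.963, Mcam at 0.949, Fyb1 at 0.948, Plxnd1 at 0.948 and Nckap1l at 0.946. Npr1 encodes a natriuretic peptide receptor, Mcam a surface protein of endothelial and mural cells, Plxnd1 a semaphorin receptor of endothelium, and Fyb1 and Nckap1l encode proteins of blood cells. These correlations are descriptions over arrays that share 3 groups, and no test was made of them.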

How the data were processed

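Whole skin with its cutaneous muscle was measured on 16 arrays. Log2 values were deposited by the authors after RMA, which corrects background, normalizes between arrays and summarizes each probeset. R 3.0.1 is named in the submitters' processing notes; for RMA itself no version is given in the sources used. Of 31099 probesets, 57 controls, 9780 with no gene and 436 with several genes were left out, and the remaining 20826 were collapsed to the median per gene (4525 genes had several). No gene was filtered out for a low value.

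Groups came from the labels. In R 4.3.3 with limma 3.58.1, 1 model with a mean for each group was fitted over all genes (lmFit and eBayes), with Benjamini-Hochberg adjustment over 14217 genes and a threshold of 0.05. The number of arrays limits the precision. The members, gene lists, naming rule and motifs were chosen with earlier results of these data known. The rule named all 10 genes, up to 4 called genes of each other list at 7 days, up to 2 at 14 days, and the 5 genes of most similar profile. Replicate numbers gave no pairing of samples. Tested on simulated data over 14217 genes, the test recovered 88% of 50 genes raised by 1 at 7 days and 54% of 50 raised by 0.5. The simulated noise was independent between genes, with 1 SD per gene in every group. The real arrays differed in spread between groups, so that these percentages do not give the power for the 10 genes. Alternatives concerned the scaling, the probeset summary, moderation, array weights, a filter on dim genes, a replicate block, covariates, the threshold and which arrays were fitted.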

Additional observations from a re-analysis of the deposited data

Results flagged for a closer look

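In 3 of the 30 sets of arrays examined (10 genes in 3 groups), the lowest array stood far from the next one, and chance alone gives about 1 in 20 such sets. Sox17 in naïve skin was 4.85 in replicate 5, with the next array at 4.98. Flt1 at 14 days was 5.94 in replicate 4, with the next at 6.08, and without that array it was 0.23 above naïve skin (limma adjusted p = 0.054). Vegfa at 14 days was 7.77 in replicate 1, with the next at 8.08, and without that array it was 0.07 above naïve skin (adjusted p = 0.697).

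The difference from naïve skin changed between the times for 4 genes, by limma's test of the change itself. As 14 days minus 7 days it was -0.77 for Sox18, -0.62 for Tek, -0.69 for Tie1 and -0.67 for Pecam1.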

How the results depend on the processing

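Beside each count of the 10 genes, the share of all genes called in the same fit is given in parentheses. The 6 genes higher at 7 days (7.85%) became 3 with array weights (15%), 1 when only the groups compared were fitted (1.86%), 2 without naïve replicates 4 and 5 (2.43%) and 1 at an adjusted p under 0.01 (2.37%), with 3 to 6 when each array was left out in turn (3.72% to 10.6%). The 4 genes lower at 14 days than at 7 days (10.1%) became 1 after repeated quantile normalization (5.18%), 0 with the sarcomere score as a covariate (10.0%) and 0 at an adjusted p under 0.01 (2.31%), with 0 to 5 when each array was left out (5.21% to 11.7%), and 6 with array weights (18.2%), which added Esm1 and Eng. The 4 genes with a rise gone at 14 days (2.72%) became 1 after quantile normalization (Tie1, 1.42%), 1 when only the groups compared were fitted (Sox18, 1.04%), 0 with the sarcomere score (3.07%), 2 without naïve replicates 4 and 5 (Sox18 and Eng, 1.68%) and 0 at an adjusted p under 0.01 (0.309%), with 0 to 4 when each array was left out (0.879% to 3.69%). The count higher at 14 days than in naïve skin was 1 after quantile normalization (Eng, 12.1%) and 0 to 1 when each array was left out (3.14% to 15.1%), with Flt1 called without naïve replicate 3 (5.99%). The cause was not tested, apart from the stricter threshold. With the replicate block, 5 genes were higher at 7 days (5.25%), 4 were lower at 14 days than at 7 days (8.51%) and 4 had a rise gone (2.13%). Kdr alone lost its call (0.37, limma adjusted p = 0.0625). The numbers give no pairing, since arrays of the same number correlated between -0.55 and 0.58 over 15 pairs (median 0.10).

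Signs turned only for differences that did not pass. For Vegfa, 7 days minus naïve was -0.0146 with the brightest probeset, -0.0148 after quantile normalization, -0.0467 with array weights, -0.0315 without naïve replicates 1 and 2, -0.0314 without naïve replicates 4 and 5, and -0.0286 to 0.114 with each array left out. Vegfa at 14 days minus naïve was -0.221 with the brightest probeset, -0.0314 with medians subtracted, -0.0987 with array weights, -0.0682 without naïve replicates 1 and 2, -0.0681 without 4 and 5, and -0.0375 to 0.0767 with each array left out. Its 14 minus 7 day difference was 0.0775 (quantile), 0.0338 (sarcomere score), 0.0291 (hair score) and -0.113 to 0.0333. For Sox17, 14 days minus naïve was -0.429 with the brightest probeset, -0.129 with the mean of probesets, -0.0251 (quantile), -0.0141 (medians subtracted), -0.0065 (hair score), -0.0059 without naïve replicates 4 and 5, and -0.0096 to 0.0478. Flt1 at 14 minus 7 days was -0.126 with the brightest probeset and -0.0239 with the mean. At 14 days minus naïve, array weights gave -0.214 for Tek, -0.0306 for Tie1 and -0.135 for Pecam1, and leaving out naïve replicates 1 and 2 gave -0.114 for Tek, -0.0015 for Tie1 and -0.127 for Pecam1. With each array left out, Tek ran from -0.0134 to 0.165 and Pecam1 from -0.0309 to 0.131. Esm1 was 0.0476 with the block, 0.239 with the sarcomere score, 0.168 with the hair score, and -0.0634 to 0.0476 with each array left out.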
